A study of Mus musculus with 3 samples.

Results

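Immediate early response genes are those that a cell transcribes within minutes of a stimulus, before any new protein is made. The 35 genes described here were listed by name for that property, with earlier results of these data known, and are 35 of the 32285 genes of the matrices. They hold the AP-1 genes *Fos*, *Fosb*, *Fosl2*, *Jun*, *Junb*, *Jund*, *Atf3* and *Maff*, the zinc finger genes *Egr1*, *Egr2*, *Egr3*, *Klf2*, *Klf4* and *Klf6*, the nuclear receptor genes *Nr4a1*, *Nr4a2* and *Nr4a3*, the phosphatase genes *Dusp1*, *Dusp2*, *Dusp4* and *Dusp5*, and the RNA decay and growth arrest genes *Zfp36*, *Zfp36l1*, *Btg1* and *Btg2*. The remaining members are *Ier2*, *Ier3*, *Ier5*, *Ppp1r15a*, *Gadd45b*, *Sgk1*, *Rhob*, *Myc*, *Csrnp1* and *Per1*.

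The promoters of these genes are served by factors that are already present in the resting cell, among them SRF with its partners, CREB and NF-κB, and kinases of the MAPK pathways switch them on by phosphorylation. Many of the products are transcription factors that act on a second set of genes, while others are phosphatases and RNA-binding proteins that end the signal and destroy the short-lived transcripts. In dendritic cells microbial ligands and cytokines raise them, and digestion of a tissue into single cells is known to raise them as well.

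Pre-cDCs, cDC1s and cDC2s had been sorted by flow cytometry from digested MCA205 LA OVA tumours on the fifth day, and the cells of 1 genotype were pooled from several mice into 1 library. The genotypes were WT, sGSN-/-, which lacks secreted gelsolin, and sGSN-/-Clec9a-/-, which lacks secreted gelsolin and the receptor DNGR-1 encoded by *Clec9a*. Each genotype has 1 library, so genotype and library cannot be told apart. The authors' table places 5806 of 30209 barcodes in 12 cDC1 clusters, numbered 0 to 11, and the other barcodes are outside it.

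The labels were checked on marker genes. The 8 cDC1 markers *Xcr1*, *Clec9a*, *Cadm1*, *Tlr3*, *Irf8*, *Wdfy4*, *Itgae* and *Naaa* summed to 3756, 3637 and 3753 CPM (UMIs scaled to the same total in each group and library) in the cDC1s of the WT, sGSN-/- and sGSN-/-Clec9a-/- libraries, against 223, 273 and 233 in barcodes outside the table that carry cDC2 markers. *Clec9a* gave 5502 unique molecular identifiers (UMIs, the transcripts counted) in WT cDC1s, 3970 in sGSN-/- cDC1s and 2 in sGSN-/-Clec9a-/- cDC1s, as the genotypes name it. *Gsn* had 152, 169 and 167 CPM, and as the gene also encodes the cytoplasmic form this does not check the sGSN-/- label. Of the cell barcodes, 26 were shared by the WT and sGSN-/- libraries, 28 by the WT and sGSN-/-Clec9a-/- libraries and 27 by the sGSN-/- and sGSN-/-Clec9a-/- libraries, and 2, 2 and 3 of these were cDC1s of the table in each library of the pair.

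All 35 members were detected in the cDC1s of the table, with 216972 UMIs for *Fos* as the largest and 856 for *Myc* as the smallest number. Together they made up 20366, 18806 and 19612 CPM in the cDC1s of the WT, sGSN-/- and sGSN-/-Clec9a-/- libraries. *Fos*, *Junb* and *Btg2* held 32.3% of that sum (mean of the libraries). The summed level lay lowest in cluster 1 (13283, 13449 and 12890.3 CPM) among clusters 0 to 9, and cluster 0 had 15549, 15304 and 16368 CPM. Cluster 2 had 19807, 20831 and 20885 CPM, cluster 3 31962, 29293 and 29406 CPM and cluster 6 29092, 27036 and 26786 CPM. Cluster 9 had 35118, 31766 and 29826 CPM. Each library of clusters 2, 3, 6 and 9 was above each library of clusters 0, 1, 4 and 5, while clusters 3 and 9 overlapped with one another.

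Cluster 7 summed to 21628, 21069 and 19404 CPM and cluster 8 to 17098, 15926 and 18851 CPM. The small clusters 10 and 11 had 13766, 15947 and 14238 and 11732, 16236 and 15703 CPM. The exact Poisson 95% interval, which covers counting error only, ran from 34759 to 35480 CPM in cluster 9 of the WT library. Cluster 9 held 67, 40 and 55 cells, and cluster 0 406, 286 and 299.

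**Figure D1:**
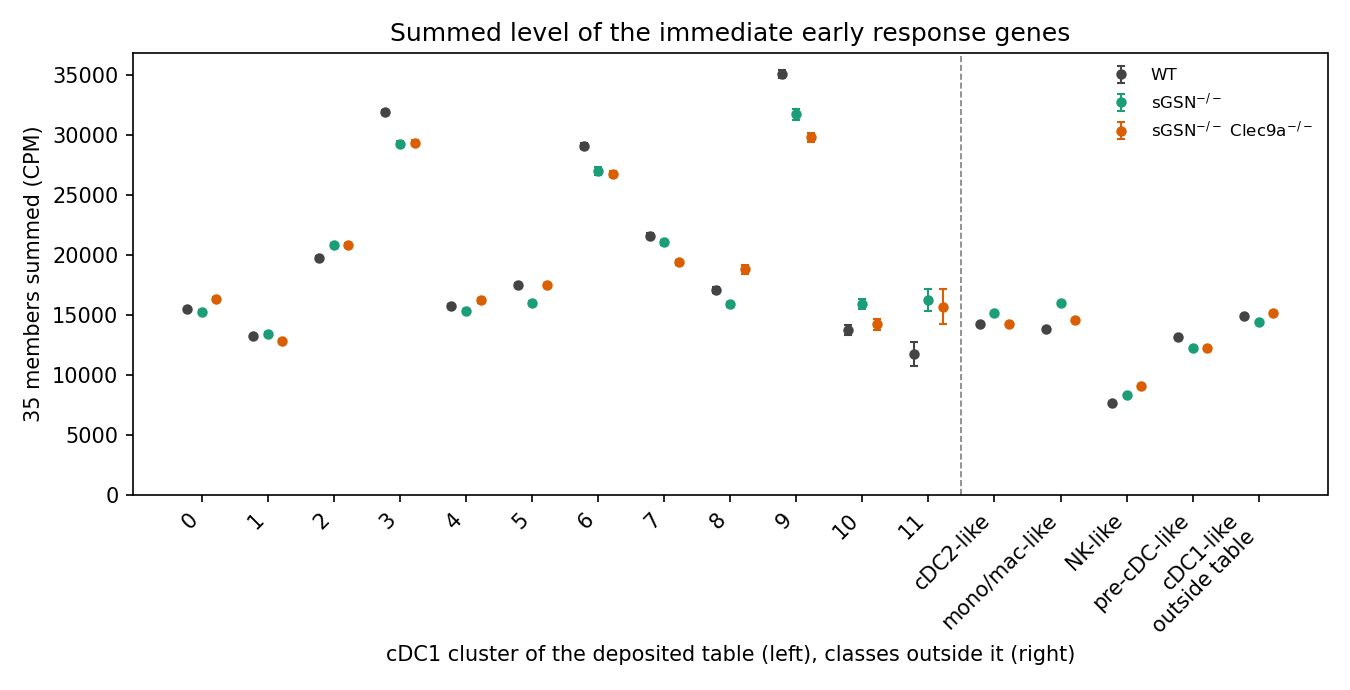
Summed level of the 35 immediate early response genes in each cDC1 cluster of the deposited table and in barcodes outside it. Points are CPM of 1 library, bars are exact Poisson 95% intervals (counting error only), and color gives the genotype.

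The members did not share 1 leading cluster. By the mean of the 3 libraries, 9 members had their highest level in cluster 9 (*Dusp2*, *Egr1*, *Egr3*, *Fosb*, *Ier2*, *Jun*, *Maff*, *Ppp1r15a* and *Zfp36*), 8 in cluster 3 (*Atf3*, *Btg2*, *Fos*, *Ier5*, *Junb*, *Jund*, *Klf2* and *Rhob*) and 7 in cluster 6 (*Csrnp1*, *Dusp1*, *Egr2*, *Klf4*, *Nr4a1*, *Nr4a2* and *Per1*). Cluster 8 led for 6 members (*Btg1*, *Dusp5*, *Gadd45b*, *Klf6*, *Nr4a3* and *Zfp36l1*), and it was also the lowest cluster for 11 others. Cluster 2 led for *Ier3* and cluster 0 for *Sgk1*. The highest means of *Dusp4* (cluster 10, 56.7, 29.0 and 10.04 CPM from 28 UMIs) and *Fosl2* (cluster 11, 0, 217 and 274 CPM from 25 UMIs) rest on few UMIs and on unlike libraries, and *Myc* had 14.0, 16.5 and 9.94 CPM in cluster 2 beside 10.6, 16.2 and 13.3 in cluster 9.

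**Figure D2:**
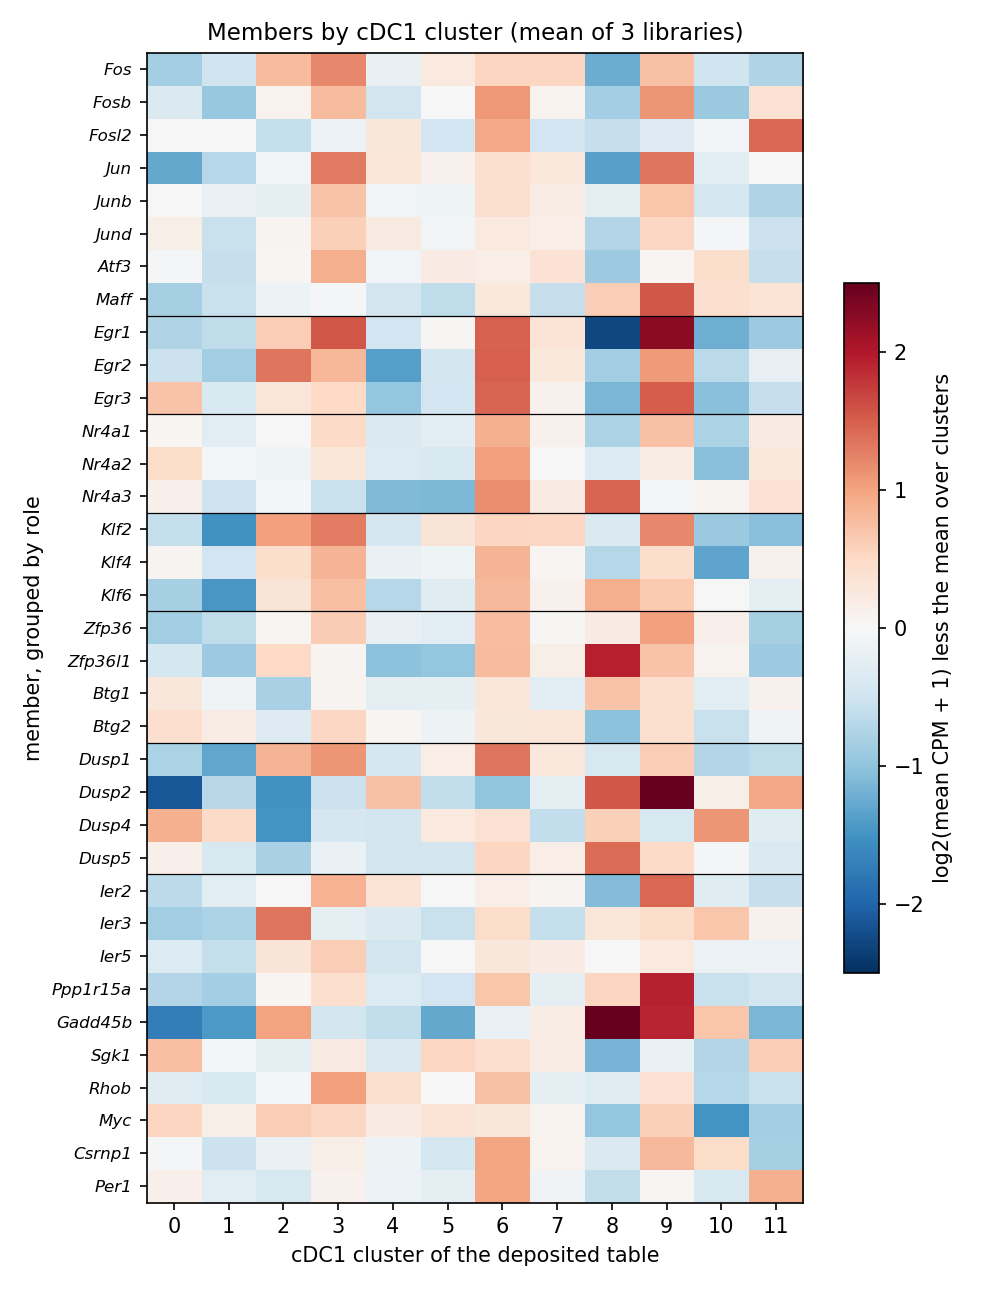
Level of each member by cDC1 cluster, as log2 of the mean CPM of 3 libraries plus 1, centered on the mean over the 12 clusters. Horizontal lines part AP-1, EGR, NR4A, KLF, RNA decay and growth arrest, dual-specificity phosphatase and other genes.

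UMIs of clusters 2, 3 and 6 together, of cluster 0 and of cluster 9 were summed per library and compared with edgeR, and all 35 members passed its filter on low counts. The authors had called these clusters on the same cells and genes, so the calls below describe how alike the libraries are and are no test of the clusters. The comparisons share sums and are given side by side. Fold changes carry TMM scaling factors, which the levels in CPM do not, so that a log2 fold change near 0 can stand beside levels that differ slightly in 1 direction. In clusters 2, 3 and 6 against cluster 0, 20 of the 35 members were higher at an adjusted p under 0.05, beside 12.3% of all 9692 genes tested, and 6 were lower, beside 13.8%. The median log2 fold change was 0.64 for the members and 0.04 for all genes. Without TMM scaling factors the median of all genes moved to 0.19, 2229 genes were higher and 431 lower in place of 1190 and 1335, and the members split 22 to 5. With cluster 6 left out, 10 members were lower and 20 higher, beside 768 and 777 of all genes. Calls over all genes fell to 469 to 825 higher and 643 to 1107 lower when 1 library was left out, and to 779 and 1185 with DESeq2.

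In cluster 9 against cluster 0, 23 members were higher, beside 6.81% of all genes, and 3 were lower, beside 7.41%. The number of lower members was 1 without the WT library, 5 without the sGSN-/- library and 5 with the library as a block, beside 385, 395 and 878 of all genes in place of 718. Higher calls over all genes fell to 392 to 500 when 1 library was left out. The members' median was 0.73, and that of all genes was 0.01. Without TMM factors all genes split 828 higher to 391 lower in place of 660 to 718, and the members 24 to 2. In cluster 9 against clusters 2, 3 and 6, 16 members were higher, beside 3.94% of all genes, and 1, *Dusp1*, was lower, beside 1.17%. That lower call went without the WT library and without the sGSN-/-Clec9a-/- library, and 2 members were lower without the sGSN-/- library and 2 with the library as a block, beside 63 and 167 of all genes. All genes had 244 to 269 higher and 58 to 69 lower calls when 1 library was left out. Here the medians were 0.27 for the members and -0.01 for all genes, and without TMM factors all genes split 288 to 161 in place of 382 to 113, and the members 16 to 2.

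**Figure D3:**
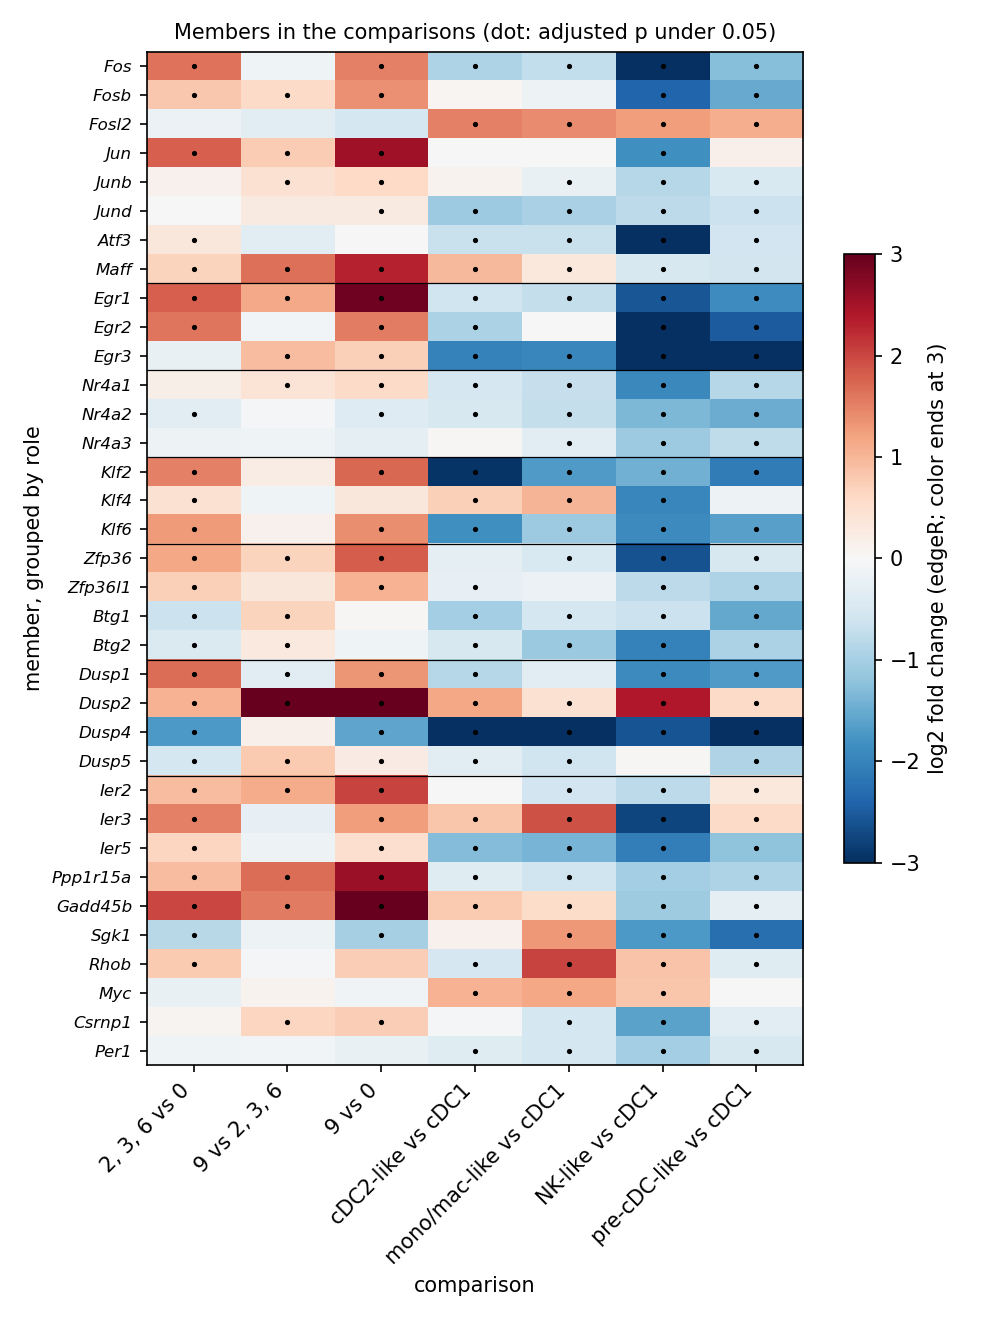
Log2 fold change of each member in the 3 cluster comparisons and in the 4 comparisons of barcodes outside the table with the cDC1s of the table. Dots mark an adjusted p under 0.05 over all genes tested.

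The AP-1 genes encode leucine zipper proteins that bind DNA as pairs. *Fos*, whose product c-Fos pairs with Jun proteins, had 4586, 4259.5 and 4228 CPM in clusters 2, 3 and 6 of the WT, sGSN-/- and sGSN-/-Clec9a-/- libraries, 1251, 1195 and 1374 in cluster 0 and 4399, 3654 and 3469 in cluster 9. The *Fos* sums of clusters 2, 3 and 6 lay above those of cluster 0 without overlap (log2 fold change 1.62, adjusted p = 3.96e-10, 3 of 3 libraries higher). For *Fos*, cluster 9 lay above cluster 0 without overlap (1.50, adjusted p = 2.18e-10, 3 of 3 libraries higher) and overlapped with clusters 2, 3 and 6 (-0.12, adjusted p = 0.587, 3 of 3 libraries lower). *Jun* encodes the partner c-Jun and had 1079, 961 and 836 CPM in clusters 2, 3 and 6, 267, 214 and 260.3 in cluster 0 and 1929, 1336 and 1342 in cluster 9. For *Jun*, clusters 2, 3 and 6 lay above cluster 0 without overlap (log2 fold change 1.80, adjusted p = 6.6e-09, 3 of 3 libraries higher). *Jun* in cluster 9 lay above cluster 0 (2.55, adjusted p = 1.3e-11, 3 of 3 libraries higher) and clusters 2, 3 and 6 (0.75, adjusted p = 0.000341, 3 of 3 libraries higher), in each case without overlap.

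*Fosb*, a close relative of *Fos* with a more stable product, had 993, 951 and 1042 CPM in clusters 2, 3 and 6, 498, 495 and 551 in cluster 0 and 1575, 1388 and 1299.6 in cluster 9. *Fosb* in clusters 2, 3 and 6 lay above cluster 0 without overlap (log2 fold change 0.80, adjusted p = 2.06e-06, 3 of 3 libraries higher). From cluster 9, *Fosb* values lay above cluster 0 (1.38, adjusted p = 7.55e-10, 3 of 3 libraries higher) and clusters 2, 3 and 6 (0.58, adjusted p = 0.00016, 3 of 3 libraries higher), in each case without overlap. *Fosl2* encodes FRA2, a Fos-related partner without the strong activation domain of c-Fos, and had 59.5, 49.7 and 66.9 CPM in clusters 2, 3 and 6, 58.0, 58.6 and 65.0 in cluster 0 and 31.7, 63.1 and 47.4 in cluster 9. Its values in clusters 2, 3 and 6 overlapped with those in cluster 0 (log2 fold change -0.19, adjusted p = 0.26, 1 of 3 libraries lower). Cluster 9 *Fosl2* values overlapped with cluster 0 (-0.53, adjusted p = 0.0908, 2 of 3 libraries lower) and with clusters 2, 3 and 6 (-0.35, adjusted p = 0.447, 2 of 3 libraries lower). By cluster, *Fosl2* had 41.2, 32.4 and 44.1 CPM in cluster 2, 59.5, 52.2 and 50.1 in cluster 3 and 107, 94.5 and 147 in cluster 6, so that cluster 2 lay below, cluster 3 lay in overlap with and cluster 6 lay above cluster 0. The call of *Fosl2* in clusters 2, 3 and 6 against cluster 0 was gained with cluster 6 left out (-0.49, adjusted p = 0.00315; range over alternatives 0.00315 to 0.992). The call of *Fosl2* in cluster 9 against cluster 0 was gained with the library as a block and without the sGSN-/- library (-0.54, adjusted p = 0.0242, then -0.79, adjusted p = 0.0269; range over alternatives 0.00208 to 0.53), and also without the filter on low counts.

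*Junb*, whose product dampens or replaces c-Jun at AP-1 sites, had 2300.0, 2387 and 2289 CPM in clusters 2, 3 and 6, 1775, 1992 and 1956 in cluster 0 and 3438, 3008 and 2753 in cluster 9. The *Junb* sums of clusters 2, 3 and 6 lay above those of cluster 0 without overlap (log2 fold change 0.13, adjusted p = 0.247, 3 of 3 libraries higher). For *Junb*, cluster 9 lay above cluster 0 (0.59, adjusted p = 3.7e-05, 3 of 3 libraries higher) and clusters 2, 3 and 6 (0.46, adjusted p = 0.000934, 3 of 3 libraries higher), in each case without overlap. By cluster, *Junb* had 1496, 1742 and 1609 CPM in cluster 2, 3089.7, 3123 and 3033 in cluster 3 and 2561, 2334 and 2617 in cluster 6, so that cluster 2 lay below and clusters 3 and 6 lay above cluster 0. The call of *Junb* in clusters 2, 3 and 6 against cluster 0 was gained without TMM factors (0.29, adjusted p = 0.00999; range over alternatives 0.00999 to 0.75). *Jund* encodes the Jun protein that many resting cells carry and had 1252, 1193 and 1193 CPM in clusters 2, 3 and 6, 1132, 1029.8 and 1088 in cluster 0 and 1519, 1429 and 1239 in cluster 9. For *Jund*, clusters 2, 3 and 6 lay above cluster 0 without overlap (log2 fold change 0.01, adjusted p = 0.947, 3 of 3 libraries higher). *Jund* in cluster 9 lay above cluster 0 without overlap (0.28, adjusted p = 0.0233, 3 of 3 libraries higher) and overlapped with clusters 2, 3 and 6 (0.27, adjusted p = 0.0587, 3 of 3 libraries higher). By cluster, *Jund* had 997, 1035 and 1029 CPM in cluster 2, 1525, 1407 and 1478 in cluster 3 and 1285, 1089.6 and 1099 in cluster 6, so that clusters 2 and 6 lay in overlap with and cluster 3 lay above cluster 0. The call of *Jund* in cluster 9 against clusters 2, 3 and 6 was gained with the library as a block (0.26, adjusted p = 0.00144; range over alternatives 0.00144 to 0.4), and also with DESeq2. The call of *Jund* in cluster 9 against cluster 0 was lost without the WT or sGSN-/- library (0.22, adjusted p = 0.202, then 0.21, adjusted p = 0.23; range over alternatives 0.000474 to 0.23), and also without the filter on low counts and with thinned cells. *Jun* overlaps *Junos*, *Junb* overlaps *Prdx2* and *Jund* overlaps *Gm11175* in the annotation, and how the counting parted them is not given in the files.

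*Atf3*, a stress-induced factor that represses many inflammatory genes, had 1786, 1704 and 1492 CPM in clusters 2, 3 and 6, 1181, 1195 and 1165 in cluster 0 and 1182, 1550.1 and 1032 in cluster 9. *Atf3* in clusters 2, 3 and 6 lay above cluster 0 without overlap (log2 fold change 0.34, adjusted p = 0.0154, 3 of 3 libraries higher). From cluster 9, *Atf3* values overlapped with cluster 0 (-0.01, adjusted p = 0.973, 1 of 3 libraries lower) and with clusters 2, 3 and 6 (-0.35, adjusted p = 0.0507, 3 of 3 libraries lower). By cluster, *Atf3* had 1241, 1314 and 1159 CPM in cluster 2, 2575, 2232 and 2077 in cluster 3 and 1375, 1452 and 1284 in cluster 6, so that cluster 2 lay in overlap with and clusters 3 and 6 lay above cluster 0. The call of *Atf3* in clusters 2, 3 and 6 against cluster 0 was lost without the WT library (0.28, adjusted p = 0.141; range over alternatives 6.17e-05 to 0.141). The call of *Atf3* in cluster 9 against clusters 2, 3 and 6 was gained with the library as a block and without the sGSN-/- library (-0.36, adjusted p = 0.000364, then -0.51, adjusted p = 0.00637; range over alternatives 6.81e-05 to 0.348), and also without TMM factors, with totals without the members, without the filter on low counts, with high doublet scores left out, with cluster 6 left out and with groups called without the members. *Maff* encodes a small MAF protein without an activation domain of its own and had 62.2, 65.3 and 64.7 CPM in clusters 2, 3 and 6, 38.1, 35.9 and 33.6 in cluster 0 and 198, 198 and 176 in cluster 9. Its values in clusters 2, 3 and 6 lay above those in cluster 0 without overlap (log2 fold change 0.68, adjusted p = 8.21e-06, 3 of 3 libraries higher). Cluster 9 *Maff* values lay above cluster 0 (2.32, adjusted p = 6.86e-13, 3 of 3 libraries higher) and clusters 2, 3 and 6 (1.64, adjusted p = 5.44e-11, 3 of 3 libraries higher), in each case without overlap. *Atf3* overlaps *Gm24748* in the annotation.

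The EGR genes encode zinc finger factors that bind GC-rich promoter sites downstream of ERK. *Egr1*, the member of this family with the most UMIs here, had 1123, 1196 and 1158 CPM in clusters 2, 3 and 6, 241, 295 and 371 in cluster 0 and 3039.5, 2150.3 and 2146 in cluster 9. The *Egr1* sums of clusters 2, 3 and 6 lay above those of cluster 0 without overlap (log2 fold change 1.79, adjusted p = 3.66e-08, 3 of 3 libraries higher). For *Egr1*, cluster 9 lay above cluster 0 (2.93, adjusted p = 1.04e-11, 3 of 3 libraries higher) and clusters 2, 3 and 6 (1.14, adjusted p = 7.25e-06, 3 of 3 libraries higher), in each case without overlap. *Nr4a1* encodes an orphan nuclear receptor that is active without a ligand. It had 1002, 967 and 941 CPM in clusters 2, 3 and 6, 738, 743 and 845 in cluster 0 and 1283, 1346 and 1079 in cluster 9. For *Nr4a1*, clusters 2, 3 and 6 lay above cluster 0 without overlap (log2 fold change 0.17, adjusted p = 0.148, 3 of 3 libraries higher). *Nr4a1* in cluster 9 lay above cluster 0 (0.58, adjusted p = 0.000101, 3 of 3 libraries higher) and clusters 2, 3 and 6 (0.41, adjusted p = 0.00502, 3 of 3 libraries higher), in each case without overlap. By cluster, *Nr4a1* had 712, 775 and 746 CPM in cluster 2, 1137, 1056 and 943 in cluster 3 and 1444, 1299.7 and 1387 in cluster 6, so that cluster 2 lay in overlap with and clusters 3 and 6 lay above cluster 0. The call of *Nr4a1* in clusters 2, 3 and 6 against cluster 0 was gained with the library as a block and without the sGSN-/-Clec9a-/- library (0.17, adjusted p = 0.0263, then 0.24, adjusted p = 0.048; range over alternatives 0.00667 to 0.639), and also without TMM factors. The call of *Nr4a1* in cluster 9 against clusters 2, 3 and 6 was lost without the WT or sGSN-/- library (0.38, adjusted p = 0.0592, then 0.34, adjusted p = 0.118; range over alternatives 3.12e-05 to 0.118), and also with thinned cells.

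*Klf6*, a Krüppel-like factor with a role in myeloid activation, had 1165, 1046 and 1051 CPM in clusters 2, 3 and 6, 417, 371 and 431 in cluster 0 and 1382, 941 and 1097 in cluster 9. *Klf6* in clusters 2, 3 and 6 lay above cluster 0 without overlap (log2 fold change 1.27, adjusted p = 7.51e-08, 3 of 3 libraries higher). From cluster 9, *Klf6* values lay above cluster 0 without overlap (1.40, adjusted p = 1.51e-08, 3 of 3 libraries higher) and overlapped with clusters 2, 3 and 6 (0.14, adjusted p = 0.611, 2 of 3 libraries higher). *Zfp36* encodes tristetraprolin, which binds AU-rich elements and has the transcripts of *Tnf* and other cytokines degraded. The gene had 893, 940.4 and 950.1 CPM in clusters 2, 3 and 6, 323, 374 and 424 in cluster 0 and 1313, 1471 and 1437 in cluster 9. Its values in clusters 2, 3 and 6 lay above those in cluster 0 without overlap (log2 fold change 1.16, adjusted p = 6.61e-08, 3 of 3 libraries higher). Cluster 9 *Zfp36* values lay above cluster 0 (1.82, adjusted p = 4.75e-11, 3 of 3 libraries higher) and clusters 2, 3 and 6 (0.66, adjusted p = 9.79e-05, 3 of 3 libraries higher), in each case without overlap. It overlaps *Gm44710* in the annotation.

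*Btg1*, an antiproliferative gene whose product recruits the deadenylase that shortens poly(A) tails, had 1063, 1009.8 and 939 CPM in clusters 2, 3 and 6, 1532, 1397 and 1284 in cluster 0 and 1634, 1581 and 1360.2 in cluster 9. The *Btg1* sums of clusters 2, 3 and 6 lay below those of cluster 0 without overlap (log2 fold change -0.64, adjusted p = 1.02e-05, 3 of 3 libraries lower). For *Btg1*, cluster 9 overlapped with cluster 0 (0.03, adjusted p = 0.874, 3 of 3 libraries higher) and lay above clusters 2, 3 and 6 without overlap (0.67, adjusted p = 8.08e-06, 3 of 3 libraries higher). By cluster, *Btg1* had 668, 691 and 615 CPM in cluster 2, 1351, 1235 and 1062 in cluster 3 and 1426, 1356 and 1479.5 in cluster 6, so that cluster 2 lay below and clusters 3 and 6 lay in overlap with cluster 0. *Btg2* is its p53-responsive relative and had 1507, 1607 and 1452 CPM in clusters 2, 3 and 6, 1854, 1744 and 1913 in cluster 0 and 1799, 1848 and 1747 in cluster 9. For *Btg2*, clusters 2, 3 and 6 lay below cluster 0 without overlap (log2 fold change -0.43, adjusted p = 0.000276, 3 of 3 libraries lower). *Btg2* in cluster 9 overlapped with cluster 0 (-0.12, adjusted p = 0.299, 2 of 3 libraries lower) and lay above clusters 2, 3 and 6 without overlap (0.30, adjusted p = 0.0141, 3 of 3 libraries higher). By cluster, *Btg2* had 995, 1168 and 1102 CPM in cluster 2, 2011, 2102 and 1766 in cluster 3 and 1672, 1590.2 and 1736 in cluster 6, so that clusters 2 and 6 lay below and cluster 3 lay in overlap with cluster 0. The call of *Btg2* in cluster 9 against clusters 2, 3 and 6 was lost without the WT, sGSN-/- or sGSN-/-Clec9a-/- library (0.28, adjusted p = 0.166, then 0.32, adjusted p = 0.0644, then 0.29, adjusted p = 0.0893; range over alternatives 9.81e-05 to 0.166), and also without the filter on low counts and with thinned cells. The call of *Btg2* in cluster 9 against cluster 0 was gained with groups called without the members (-0.23, adjusted p = 0.0338; range over alternatives 0.0338 to 0.828).

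The DUSP genes encode phosphatases that switch MAP kinases off. *Dusp1*, which acts on p38 and JNK in the nucleus, had 1275, 997 and 1197 CPM in clusters 2, 3 and 6, 311, 315 and 352 in cluster 0 and 854, 836 and 929.5 in cluster 9. *Dusp1* in clusters 2, 3 and 6 lay above cluster 0 without overlap (log2 fold change 1.68, adjusted p = 6.18e-10, 3 of 3 libraries higher). From cluster 9, *Dusp1* values lay above cluster 0 without overlap (1.33, adjusted p = 9.61e-09, 3 of 3 libraries higher) and lay below clusters 2, 3 and 6 without overlap (-0.34, adjusted p = 0.0476, 3 of 3 libraries lower). The call of *Dusp1* in cluster 9 against clusters 2, 3 and 6 was lost without the WT or sGSN-/-Clec9a-/- library (-0.27, adjusted p = 0.322, then -0.37, adjusted p = 0.0879; range over alternatives 0.000171 to 0.322), and also with DESeq2 and with cluster 6 left out. *Dusp2*, another nuclear phosphatase of immune cells, had 38.2, 38.7 and 39.0 CPM in clusters 2, 3 and 6, 15.5, 18.3 and 17.2 in cluster 0 and 878, 741 and 728 in cluster 9. Its values in clusters 2, 3 and 6 lay above those in cluster 0 without overlap (log2 fold change 1.05, adjusted p = 2.07e-06, 3 of 3 libraries higher). Cluster 9 *Dusp2* values lay above cluster 0 (5.45, adjusted p = 3.21e-18, 3 of 3 libraries higher) and clusters 2, 3 and 6 (4.41, adjusted p = 1.6e-17, 3 of 3 libraries higher), in each case without overlap. *Dusp4*, the third of these nuclear enzymes, had 9.25, 11.2 and 7.31 CPM in clusters 2, 3 and 6, 30.2, 26.3 and 24.8 in cluster 0 and 6.72, 16.2 and 8.88 in cluster 9. The *Dusp4* sums of clusters 2, 3 and 6 lay below those of cluster 0 without overlap (log2 fold change -1.72, adjusted p = 7.29e-08, 3 of 3 libraries lower). For *Dusp4*, cluster 9 lay below cluster 0 without overlap (-1.58, adjusted p = 0.000692, 3 of 3 libraries lower) and overlapped with clusters 2, 3 and 6 (0.14, adjusted p = 0.917, 2 of 3 libraries higher). The call of *Dusp4* in cluster 9 against cluster 0 was lost without the WT library (-1.18, adjusted p = 0.0542; range over alternatives 1.64e-07 to 0.0542). *Dusp1* overlaps *Ergic1*, *Gm8225*, *AC122252.1* and *AC122252.4* in the annotation.

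*Ier5*, whose product works with the heat shock factor HSF1, had 926, 938 and 914 CPM in clusters 2, 3 and 6, 516, 503 and 586 in cluster 0 and 847, 802 and 758 in cluster 9. For *Ier5*, clusters 2, 3 and 6 lay above cluster 0 without overlap (log2 fold change 0.64, adjusted p = 1.23e-05, 3 of 3 libraries higher). *Ier5* in cluster 9 lay above cluster 0 without overlap (0.49, adjusted p = 0.00036, 3 of 3 libraries higher) and lay below clusters 2, 3 and 6 without overlap (-0.14, adjusted p = 0.445, 3 of 3 libraries lower). *Ppp1r15a* encodes GADD34, which brings a phosphatase to the initiation factor eIF2α and restores translation after stress. This gene had 328, 364 and 326 CPM in clusters 2, 3 and 6, 146, 166 and 174 in cluster 0 and 1076, 1031 and 1006 in cluster 9. *Ppp1r15a* in clusters 2, 3 and 6 lay above cluster 0 without overlap (log2 fold change 0.91, adjusted p = 2.31e-07, 3 of 3 libraries higher). From cluster 9, *Ppp1r15a* values lay above cluster 0 (2.59, adjusted p = 2.2e-14, 3 of 3 libraries higher) and clusters 2, 3 and 6 (1.68, adjusted p = 1.64e-11, 3 of 3 libraries higher), in each case without overlap. It overlaps *Tulp2* in the annotation.

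*Gadd45b*, whose product binds MAP kinase kinases, had 294, 263 and 304 CPM in clusters 2, 3 and 6, 69.6, 49.3 and 74.1 in cluster 0 and 774, 849 and 817 in cluster 9. Its values in clusters 2, 3 and 6 lay above those in cluster 0 without overlap (log2 fold change 2.01, adjusted p = 6.18e-10, 3 of 3 libraries higher). Cluster 9 *Gadd45b* values lay above cluster 0 (3.56, adjusted p = 3.16e-14, 3 of 3 libraries higher) and clusters 2, 3 and 6 (1.56, adjusted p = 4.76e-09, 3 of 3 libraries higher), in each case without overlap. *Sgk1* encodes a kinase that regulates ion channels and is raised by glucocorticoids, and it had 91.3, 79.8 and 79.2 CPM in clusters 2, 3 and 6, 151, 140.3 and 113 in cluster 0 and 78.7, 48.7 and 84.4 in cluster 9. The *Sgk1* sums of clusters 2, 3 and 6 lay below those of cluster 0 without overlap (log2 fold change -0.84, adjusted p = 8.61e-06, 3 of 3 libraries lower). For *Sgk1*, cluster 9 lay below cluster 0 without overlap (-0.98, adjusted p = 0.000116, 3 of 3 libraries lower) and overlapped with clusters 2, 3 and 6 (-0.14, adjusted p = 0.757, 2 of 3 libraries lower). By cluster, *Sgk1* had 72.2, 59.8 and 67.5 CPM in cluster 2, 99.7, 96.2 and 81.3 in cluster 3 and 122, 95.5 and 103 in cluster 6, so that clusters 2 and 3 lay below and cluster 6 lay in overlap with cluster 0.

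The other 14 members are given by range and number, and those named were chosen after their values were seen. Their log2 fold changes went from -0.52 (*Dusp5*) to 1.61 (*Egr2*) in clusters 2, 3 and 6 against cluster 0. Of these, 7 were called higher (*Egr2*, *Ier3*, *Klf2*, *Ier2*, *Rhob*, *Zfp36l1* and *Klf4*), 2 lower (*Dusp5* and *Nr4a2*), and *Myc*, *Egr3*, *Nr4a3*, *Per1* and *Csrnp1* missed the threshold. Of the latter, *Egr3*, *Nr4a3*, *Per1* and *Csrnp1* lay above cluster 0 in cluster 6, while *Egr3* and *Per1* lay below it in cluster 2 and *Nr4a3* in cluster 3, in each case without overlap. By cluster, *Dusp5* had 145, 173 and 158 CPM in cluster 2, 278, 281 and 195 in cluster 3 and 490.1, 351 and 386 in cluster 6, beside 321, 294 and 307 in cluster 0, so that clusters 2 and 3 lay below and cluster 6 lay above cluster 0. By cluster, *Nr4a2* had 526, 554 and 564 CPM in cluster 2, 794, 740.1 and 654 in cluster 3 and 1164, 1231 and 1193 in cluster 6, beside 802, 784 and 861 in cluster 0, so that cluster 2 lay below, cluster 3 lay in overlap with and cluster 6 lay above cluster 0. The call of *Nr4a2* in clusters 2, 3 and 6 against cluster 0 was lost without the sGSN-/- or sGSN-/-Clec9a-/- library (-0.35, adjusted p = 0.0551, then -0.28, adjusted p = 0.078; range over alternatives 0.000124 to 0.199), and also without TMM factors, with thinned cells and with groups called without the members. The call of *Klf4* in clusters 2, 3 and 6 against cluster 0 was lost without the sGSN-/-Clec9a-/- library (0.33, adjusted p = 0.127; range over alternatives 4.76e-06 to 0.127), and also with DESeq2. The call of *Egr3* in clusters 2, 3 and 6 against cluster 0 was gained with the library as a block (-0.20, adjusted p = 0.0421; range over alternatives 0.016 to 0.871), and also without the filter on low counts and with cluster 6 left out. The call of *Nr4a3* in clusters 2, 3 and 6 against cluster 0 was gained with cluster 6 left out (-0.49, adjusted p = 0.00113; range over alternatives 0.00113 to 0.973). The call of *Per1* in clusters 2, 3 and 6 against cluster 0 was gained with cluster 6 left out (-0.38, adjusted p = 0.00577; range over alternatives 0.00577 to 0.94).

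Among the same 14, cluster 9 against cluster 0 ran from -0.38 (*Nr4a2*) to 2.02 (*Ier2*), with 8 higher (*Ier2*, *Klf2*, *Egr2*, *Ier3*, *Zfp36l1*, *Csrnp1*, *Egr3* and *Dusp5*) and 1 lower calls (*Nr4a2*). The call of *Dusp5* in cluster 9 against cluster 0 was lost without the WT, sGSN-/- or sGSN-/-Clec9a-/- library (0.23, adjusted p = 0.199, then 0.21, adjusted p = 0.248, then 0.28, adjusted p = 0.0883; range over alternatives 0.00831 to 0.257), and also without the filter on low counts, with thinned cells and with groups called without the members. The call of *Nr4a2* in cluster 9 against cluster 0 was lost without the WT library (-0.27, adjusted p = 0.104; range over alternatives 6.79e-06 to 0.104), and also without TMM factors. The call of *Klf4* in cluster 9 against cluster 0 was gained with the library as a block (0.33, adjusted p = 0.0285; range over alternatives 0.011 to 0.98), and also with groups called without the members. The call of *Nr4a3* in cluster 9 against cluster 0 was gained with the library as a block and without the sGSN-/- library (-0.31, adjusted p = 0.0189, then -0.45, adjusted p = 0.0359; range over alternatives 0.00434 to 0.689), and also without the filter on low counts and with thinned cells. The call of *Rhob* in cluster 9 against cluster 0 was gained with the library as a block and without the sGSN-/- library (0.76, adjusted p = 0.0315, then 0.99, adjusted p = 0.0424; range over alternatives 0.0315 to 0.878), and also without TMM factors. Cluster 9 against clusters 2, 3 and 6 ran from -0.25 (*Ier3*) to 1.10 (*Ier2*), and *Ier2*, *Egr3*, *Dusp5* and *Csrnp1* were called higher. The call of *Zfp36l1* in cluster 9 against clusters 2, 3 and 6 was gained with the library as a block and without the sGSN-/-Clec9a-/- library (0.33, adjusted p = 0.0125, then 0.47, adjusted p = 0.0278; range over alternatives 0.0125 to 0.744), and also with groups called without the members. *Csrnp1* overlaps *Cx3cr1* and *1700019L13Rik*, *Dusp5* overlaps *AC137853.2* and *Zfp36l1* overlaps *Gm26669* in the annotation. Whether the change of 1 member differs from that of another was not tested.

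The levels of the members were set beside one another over the 36 sums of 12 clusters and 3 libraries, which share libraries, depth and the cells of each pool. The median correlation of log2 of CPM plus 1 over all 595 pairs was 0.32, with 114 pairs below 0. Pairs of other genes were not read, so neither number can be set beside all genes. The sums of cluster 11 held 43470, 78284 and 29230 UMIs, and some members, such as *Rhob* and *Dusp4*, had 0 CPM in libraries of it. The most alike pairs were *Fos* and *Egr1* (0.90), *Fosb* and *Nr4a1* (0.89) and *Egr1* and *Ier2* (0.87), named after their values were seen. *Gadd45b* and *Sgk1* were the most negative pair (-0.71).

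Depth differs between cells, so each cell was thinned to 3900 UMIs, which left out 288 shallower cells of the table. The median cDC1 then held 69 UMIs of the members, with 33 at the 10th and 136 at the 90th percentile. Cluster 0 had a median of 59, cluster 2 of 76, cluster 6 of 102, cluster 3 of 116 and cluster 9 of 126. Within cluster 9 the medians were 137, 134 and 109 in the WT, sGSN-/- and sGSN-/-Clec9a-/- libraries. More member UMIs than the median of cluster 0 were found in 98.4% of cells of cluster 3, 94.9% of cluster 9, 94.3% of cluster 6 and 65.6% of cluster 2.

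Other measures moved with the members, and their part in the levels was not tested. Cluster 6 had a median of 9374, 7237 and 8288 UMIs per cell, against 15799, 15658 and 13532 in cluster 0 and 15084, 15456 and 12399 in cluster 9. The nuclear transcript *Neat1* stood at 369, 337 and 506 CPM in clusters 2, 3 and 6, 129, 105 and 177 in cluster 0 and 576, 490.3 and 756 in cluster 9, so that the first and last lay above cluster 0. *Malat1* had 33211, 31292 and 29999 CPM, 32241, 29686 and 27352 CPM and 27107, 30905 and 22941 CPM in the same groups, and *Gm42418*, which collects ribosomal RNA reads, 15309, 16662 and 29543, 8798, 9807 and 17540 and 10683, 12954 and 28885. By cluster, *Gm42418* had 10754, 11357 and 19622 CPM in cluster 2, 9473, 10514 and 17168 in cluster 3 and 40695, 48898 and 72914 in cluster 6, so that only cluster 6 lay above cluster 0 without overlap. *Malat1* had 35173, 32499 and 32750 CPM in cluster 2, 29872, 26905 and 24436.5 in cluster 3 and 35848.5, 39442 and 32918 in cluster 6. For *Malat1*, clusters 2 and 6 thus lay above cluster 0 without overlap, and cluster 3 lay in overlap with it. Mitochondrial genes took 1.61, 1.75 and 2.05% of UMIs in clusters 2, 3 and 6, 1.62, 1.72 and 1.92% in cluster 0 and 1.56, 1.95 and 1.96% in cluster 9. Cluster 6 alone had 1.91, 2.38 and 2.39%, above cluster 0 in each library. In cluster 11 they took 9.39, 8.05 and 8.08%.

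Markers of other cell types were read in the same sums. The 6 proliferation markers, all detected and led by *Stmn1*, summed to 34.5, 38.5 and 32.6 CPM in clusters 2, 3 and 6, 34.7, 31.7 and 25.0 in cluster 0 and 128, 110.0 and 119.9 in cluster 9, where each library was higher. The 6 markers of activated cDCs had 14.1, 11.9 and 10.6, 11.9, 8.7 and 8.59 and 41.3, 59.5 and 31.1 CPM, led by *Cacnb3* in the first and second and by *Ccl22* in cluster 9, where *Fscn1* was at 0. The 9 monocyte or macrophage markers, led by *Apoe*, had 64.5, 46.5 and 52.6, 60.6, 48.6 and 54.7 and 64.3, 43.3 and 48.8 CPM. The 7 NK cell markers, led by *Klrd1*, had 42.5, 78.6 and 46.5, 36.5, 68.5 and 38.0 and 36.5, 61.3 and 40.0 CPM, with *Prf1* and *Eomes* at 0 in cluster 9. The 8 cDC1 markers, led by *Naaa*, had 4791, 4772 and 4769, 3701, 3894 and 3822 and 4071, 4589 and 4245 CPM, lowest in cluster 0. Markers of cDC2s (6 genes) had 29.8, 26.4 and 27.8, 20.1, 23.6 and 18.9 and 47.1, 41.5 and 47.4 CPM, and pre-cDC markers (5 genes, led by *Flt3*) 321, 312 and 326, 256, 265 and 278 and 269.9, 270.4 and 269 CPM.

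Genes around the members were read from lists. Of 34 kinases, factors and feedback genes of the MAPK, SRF and CREB pathways, 32 were tested, and 6 were higher and 5 lower in clusters 2, 3 and 6 against cluster 0, beside 12.3% and 13.8% of all genes (median 0.07). *Mapk8*, which encodes the c-Jun kinase JNK1, had 18.8, 18.7 and 19.8 CPM in clusters 2, 3 and 6 and 10.1, 13.2 and 9.81 in cluster 0 (log2 fold change 0.65, adjusted p = 0.00339, 3 of 3 libraries higher). This call of *Mapk8* was lost with thinned cells (log2 fold change 0.61, adjusted p = 0.111; range over alternatives 0.000451 to 0.111). *Crem*, a CREB-like gene, had 97.7, 94.8 and 89.3 CPM in clusters 2, 3 and 6 and 139, 137 and 114 in cluster 0 (log2 fold change -0.62, adjusted p = 1.11e-05, 3 of 3 libraries lower). *Mef2c*, a factor for many of the same promoters, had 65.4, 75.3 and 69.5 CPM in clusters 2, 3 and 6 and 102, 92.3 and 91.5 in cluster 0 (log2 fold change -0.61, adjusted p = 8.99e-05, 3 of 3 libraries lower). This list gave 6 higher and 3 lower genes in cluster 9 against cluster 0, beside 6.81% and 7.41% (median 0.11) and 4 and 2 against clusters 2, 3 and 6, beside 3.94% and 1.17% (median 0.04). Among them *Map3k8*, the kinase TPL2 upstream of ERK, had 116, 119 and 87.3 CPM in cluster 9 and 33.7, 32.6 and 33.9 in cluster 0 (log2 fold change 1.60, adjusted p = 7.12e-08, 3 of 3 libraries higher). *Creb1*, the CRE-binding factor, had 67.2, 57.7 and 38.5 CPM in cluster 9 and 26.8, 20.3 and 22.8 in cluster 0 (log2 fold change 1.16, adjusted p = 0.000122, 3 of 3 libraries higher), and *Crem* fell by 1.18 on the log2 scale (adjusted p = 5.7e-07, 3 of 3 libraries lower). *Creb1* was also called higher in cluster 9 against clusters 2, 3 and 6 (0.61, adjusted p = 0.0309). That call was lost without the WT or sGSN-/- library (0.38, adjusted p = 0.472, then 0.57, adjusted p = 0.161). It was also lost without TMM factors and with thinned cells.

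Of 20 NF-κB target genes, all tested, 8 were higher and 2 lower in clusters 2, 3 and 6 against cluster 0, beside 12.3% and 13.8% of all genes (median 0.22), and 17 and 1 in cluster 9 against cluster 0, beside 6.81% and 7.41% (median 1.60). Cluster 9 against clusters 2, 3 and 6 gave 18 higher and 2 lower, beside 3.94% and 1.17% (median 1.49). *Tnf* had 21.6, 15.6 and 19.4 CPM in clusters 2, 3 and 6 and 1.55, 1.56 and 3.43 in cluster 0 (log2 fold change 3.05, adjusted p = 4.79e-08, 3 of 3 libraries higher). The chemokine gene *Ccl3* had 82.4, 60.0 and 70.2 CPM in clusters 2, 3 and 6 and 21.7, 26.1 and 13.7 in cluster 0 (log2 fold change 1.64, adjusted p = 9.96e-07, 3 of 3 libraries higher), and *Nfkbid*, an inhibitor-like protein of the nucleus, 91.4, 75.4 and 88.6 CPM in clusters 2, 3 and 6 and 31.9, 28.8 and 40.7 in cluster 0 (log2 fold change 1.20, adjusted p = 6.67e-07, 3 of 3 libraries higher). In cluster 9, *Tnf* reached 145, 180.2 and 167 CPM (log2 fold change 6.18 against cluster 0, adjusted p = 3.6e-14, 3 of 3 libraries higher). *Nfkbiz* had 376, 494 and 437 CPM in cluster 9 and 16.4, 14.3 and 21.1 in cluster 0 (log2 fold change 4.56, adjusted p = 1.73e-15, 3 of 3 libraries higher), and the inhibitor gene *Nfkbia* 2149, 1945 and 1662 CPM in cluster 9 and 112, 109.9 and 119 in cluster 0 (log2 fold change 3.99, adjusted p = 1.65e-16, 3 of 3 libraries higher).

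Of 12 heat shock genes, 11 were tested. In clusters 2, 3 and 6 against cluster 0, 6 were higher and 0 lower, beside 12.3% and 13.8% of all genes (median 0.77), and in cluster 9 against cluster 0, 7 and 0, beside 6.81% and 7.41% (median 0.92). Against clusters 2, 3 and 6, cluster 9 had 2 higher and 0 lower, beside 3.94% and 1.17% (median 0.06). The call of *Dnajb1*, 1 of these 2, was lost with DESeq2 (log2 fold change 1.24, adjusted p = 0.0612; range over alternatives 4.82e-39 to 0.0612). The call of *Dnaja1*, the other, was lost with DESeq2 and without the sGSN-/- library (log2 fold change 0.69, adjusted p = 0.125, then log2 fold change 0.71, adjusted p = 0.0809; range over alternatives 4.01e-12 to 0.125), and *Dnaja1* was named after its values were seen. For the lower direction edgeR gave 0 genes at an unadjusted p under 0.05, as did DESeq2 at its adjusted threshold, in each of these comparisons. The chaperone gene *Hspa1a* had 2042, 1349 and 964 CPM in clusters 2, 3 and 6 and 508, 159 and 166 in cluster 0 (log2 fold change 2.22, adjusted p = 0.00029, 3 of 3 libraries higher), and *Hspa1b* 898, 505 and 385 CPM in clusters 2, 3 and 6 and 173, 50.4 and 48.3 in cluster 0 (log2 fold change 2.52, adjusted p = 0.000191, 3 of 3 libraries higher). The co-chaperone gene *Bag3* had 33.1, 26.3 and 15.8 CPM in clusters 2, 3 and 6 and 13.5, 6.02 and 7.36 in cluster 0 (log2 fold change 1.28, adjusted p = 0.00117, 3 of 3 libraries higher). In cluster 9, *Hspa1a* and *Hspa1b* stood at 2332, 1013 and 777 and 1007, 438 and 269 CPM (log2 fold changes 2.23 and 2.57 against cluster 0, adjusted p = 0.000406 and 0.000312, 3 of 3 libraries higher), and *Dnajb1* had 811, 389 and 342 CPM in cluster 9 and 142, 77.6 and 85.6 in cluster 0 (log2 fold change 2.27, adjusted p = 3.44e-06, 3 of 3 libraries higher). WT was the highest library for *Hspa1a* and *Hspa1b* in each of these groups.

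Barcodes outside the table were grouped by genes other than the members, so that the members did not choose these classes. This does not hold for the cDC1s of the table, which the authors chose without a stated exclusion of the members. Of 23052 barcodes outside the table that passed the filters, 3747 were named cDC2-like, 3456 monocyte- or macrophage-like, 3690 NK cell-like and 2571 pre-cDC-like. The last also carried plasmacytoid markers, and 4455 barcodes were left unnamed and enter no comparison. The members summed to 14247, 15211 and 14292 CPM in cDC2-like barcodes, 13847, 16064 and 14619 in monocyte- or macrophage-like, 7726, 8327 and 9123 in NK cell-like and 13203, 12275 and 12243 in pre-cDC-like barcodes. All lay below the 20366, 18806 and 19612 CPM of the cDC1s of the table, and NK cell-like barcodes lay lowest of the 4 classes. Quality moved as well, and its part was not tested apart from the fits with thinned cells given below. Median UMIs per cell were 9089, 6623 and 5828 in NK cell-like and 10716, 10382 and 8684 in pre-cDC-like barcodes. The cDC1s had 14092, 14150 and 12231. Mitochondrial shares were 1.97, 2.18 and 2.49%, 1.88, 2.12 and 2.41% and 1.65, 1.75 and 2.02% in the same order. Over the 4 classes *Malat1* ran from 9994 to 17496 CPM and *Neat1* from 70.1 to 309 CPM, against 28801, 27200 and 25446 and 249, 222 and 347 CPM. A further 2476 cDC1-like barcodes outside the table had 14907, 14408 and 15190 CPM, below the cDC1s of the table in each library. This name covers unlike groups. In 1 of them, led by *Cxcl9*, *Ifit3* and *Rsad2*, 6 cDC1 and 6 monocyte or macrophage markers were met (834 barcodes, 362 of them in the table). Another had a median of 2840.5 UMIs (1282 barcodes, 282 of them in the table). Of the 2476 barcodes, 891 held fewer than 3900 UMIs, beside 288 of the 5806 cDC1s of the table. With cells thinned to 3900 UMIs and shallower ones left out, the cDC1-like barcodes outside the table had medians of 53, 52 and 54.5 member UMIs. The cDC1s of the table then had 71, 65 and 71, and the difference at this depth was not tested.

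In cDC2-like barcodes against the cDC1s of the table, 7 members were higher, beside 29.7% of all 12710 genes tested, and 20 were lower, beside 30.1%. The median log2 fold change was -0.35 for the members and -0.002 for all genes. Monocyte- or macrophage-like barcodes had 9 members higher, beside 32.4%, and 21 lower, beside 31.6% (median -0.52, all genes 0.004). NK cell-like barcodes had 4 higher, beside 36.8%, and 30 lower, beside 37% (median -1.61, all genes 0.02). Without TMM factors the median of all genes in this comparison moved to 0.31 with 6415 higher and 3409 lower genes in place of 4679 and 4698, and the members split 5 to 29. Pre-cDC-like barcodes had 4 higher, beside 26%, and 28 lower, beside 29.2% (median -0.86, all genes -0.02). There the unscaled median of all genes was 0.18, with 4880 higher and 2476 lower genes in place of 3302 and 3709, and 5 members higher and 24 lower. These 4 comparisons share the sums of the cDC1s. Beside the same shares of all genes, the other lists gave these edgeR calls, in the order of the classes above. The 12 heat shock genes split 0 higher to 11 lower, 2 to 6, 2 to 8 and 0 to 11. The 20 NF-κB target genes split 13 to 4, 10 to 7, 6 to 13 and 9 to 6. The 34 genes of the MAPK, SRF and CREB pathways split 14 to 12, 16 to 14, 8 to 19 and 14 to 10.

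Among the AP-1 genes, *Fos* had 2971, 2571 and 2762 CPM in the cDC1s, against 1453, 1613 and 1387 in cDC2-like, 1550, 2015 and 1689 in monocyte- or macrophage-like, 309, 296 and 455 in NK cell-like and 1385, 1267 and 1267 in pre-cDC-like barcodes. *Fos* lay below the cDC1s without overlap in cDC2-like (-0.92, adjusted p = 1.37e-05, 3 of 3 libraries lower), monocyte- or macrophage-like (-0.74, adjusted p = 0.000116, 3 of 3 libraries lower), NK cell-like (-3.25, adjusted p = 6.74e-13, 3 of 3 libraries lower) and pre-cDC-like (-1.29, adjusted p = 2.91e-07, 3 of 3 libraries lower) barcodes. *Fosb* had 716, 647 and 725 CPM in the cDC1s, against 697, 799 and 725 in cDC2-like, 619, 701 and 664 in monocyte- or macrophage-like, 149, 147 and 192 in NK cell-like and 302, 259 and 287 in pre-cDC-like barcodes. *Fosb* lay below the cDC1s without overlap in NK cell-like (-2.39, adjusted p = 1.12e-12, 3 of 3 libraries lower) and pre-cDC-like (-1.50, adjusted p = 1.59e-09, 3 of 3 libraries lower) barcodes. For *Fosb*, values lay in overlap with the cDC1s in cDC2-like (0.07, adjusted p = 0.617, 2 of 3 libraries higher) and monocyte- or macrophage-like (-0.16, adjusted p = 0.207, 2 of 3 libraries lower) barcodes. The call of *Fosb* in monocyte- or macrophage-like barcodes was gained without the filter on low counts (-0.19, adjusted p = 0.0377; range over alternatives 0.0377 to 0.505).

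*Junb* showed 1990.0, 2053 and 2019 CPM in the cDC1s, against 2141, 2321 and 2200.4 in cDC2-like, 1735, 2000.1 and 1806 in monocyte- or macrophage-like, 1212, 1428 and 1443 in NK cell-like and 1732, 1656 and 1699 in pre-cDC-like barcodes. *Junb* lay below the cDC1s without overlap in NK cell-like (-0.86, adjusted p = 1.46e-08, 3 of 3 libraries lower) and pre-cDC-like (-0.46, adjusted p = 7e-05, 3 of 3 libraries lower) barcodes. For *Junb*, values lay in overlap with the cDC1s in monocyte- or macrophage-like (-0.21, adjusted p = 0.0237, 3 of 3 libraries lower) barcodes. For *Junb*, values lay above the cDC1s without overlap in cDC2-like (0.12, adjusted p = 0.213, 3 of 3 libraries higher) barcodes. The call of *Junb* in monocyte- or macrophage-like barcodes was lost without the WT or sGSN-/-Clec9a-/- library (-0.21, adjusted p = 0.0635, then -0.19, adjusted p = 0.0786; range over alternatives 0.00174 to 0.098), and also without TMM factors. *Jund* showed 1100.3, 999 and 1029.8 CPM in the cDC1s, against 489, 513 and 488 in cDC2-like, 544, 589.9 and 547 in monocyte- or macrophage-like, 683, 716 and 812 in NK cell-like and 776, 733 and 804 in pre-cDC-like barcodes. *Jund* lay below the cDC1s without overlap in cDC2-like (-1.09, adjusted p = 1.68e-09, 3 of 3 libraries lower), monocyte- or macrophage-like (-0.98, adjusted p = 5.59e-09, 3 of 3 libraries lower), NK cell-like (-0.79, adjusted p = 7.02e-08, 3 of 3 libraries lower) and pre-cDC-like (-0.64, adjusted p = 2.24e-06, 3 of 3 libraries lower) barcodes. *Atf3* was counted at 1396, 1313 and 1254 CPM in the cDC1s, against 850.3, 881 and 814 in cDC2-like, 805, 1012 and 842 in monocyte- or macrophage-like, 130.3, 119 and 159 in NK cell-like and 1084, 1023 and 973 in pre-cDC-like barcodes. *Atf3* lay below the cDC1s without overlap in cDC2-like (-0.66, adjusted p = 1.57e-05, 3 of 3 libraries lower), monocyte- or macrophage-like (-0.66, adjusted p = 1.31e-05, 3 of 3 libraries lower), NK cell-like (-3.57, adjusted p = 3.25e-15, 3 of 3 libraries lower) and pre-cDC-like (-0.57, adjusted p = 8.88e-05, 3 of 3 libraries lower) barcodes.

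Of the zinc finger genes, *Egr1* had 711, 644 and 732 CPM in the cDC1s, against 429, 473 and 494 in cDC2-like, 378, 506 and 474 in monocyte- or macrophage-like, 121, 132 and 180.3 in NK cell-like and 258, 185 and 207 in pre-cDC-like barcodes. *Egr1* lay below the cDC1s without overlap in cDC2-like (-0.60, adjusted p = 0.00213, 3 of 3 libraries lower), monocyte- or macrophage-like (-0.70, adjusted p = 0.000497, 3 of 3 libraries lower), NK cell-like (-2.56, adjusted p = 6.32e-11, 3 of 3 libraries lower) and pre-cDC-like (-1.88, adjusted p = 9.36e-09, 3 of 3 libraries lower) barcodes. *Klf6* had 796, 668 and 700.3 CPM in the cDC1s, against 198, 229 and 183 in cDC2-like, 338, 367 and 363 in monocyte- or macrophage-like, 219, 221 and 257 in NK cell-like and 283, 277 and 252 in pre-cDC-like barcodes. *Klf6* lay below the cDC1s without overlap in cDC2-like (-1.85, adjusted p = 4.08e-12, 3 of 3 libraries lower), monocyte- or macrophage-like (-1.10, adjusted p = 3.28e-09, 3 of 3 libraries lower), NK cell-like (-1.92, adjusted p = 9.47e-13, 3 of 3 libraries lower) and pre-cDC-like (-1.62, adjusted p = 3.43e-11, 3 of 3 libraries lower) barcodes. The receptor gene *Nr4a1* had 806, 745 and 801 CPM in the cDC1s, against 539, 562 and 574 in cDC2-like, 486, 550.3 and 505 in monocyte- or macrophage-like, 235, 240.3 and 282 in NK cell-like and 532, 481 and 482 in pre-cDC-like barcodes. *Nr4a1* lay below the cDC1s without overlap in cDC2-like (-0.51, adjusted p = 4.6e-05, 3 of 3 libraries lower), monocyte- or macrophage-like (-0.69, adjusted p = 1.09e-06, 3 of 3 libraries lower), NK cell-like (-1.92, adjusted p = 6.79e-13, 3 of 3 libraries lower) and pre-cDC-like (-0.86, adjusted p = 1.08e-07, 3 of 3 libraries lower) barcodes.

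In the RNA decay group, *Zfp36* had 656, 663 and 710.3 CPM in the cDC1s, against 531, 605 and 583 in cDC2-like, 468, 548 and 558 in monocyte- or macrophage-like, 103, 127 and 175 in NK cell-like and 543, 612 and 537 in pre-cDC-like barcodes. *Zfp36* lay below the cDC1s without overlap in cDC2-like (-0.26, adjusted p = 0.111, 3 of 3 libraries lower), monocyte- or macrophage-like (-0.45, adjusted p = 0.00821, 3 of 3 libraries lower), NK cell-like (-2.61, adjusted p = 1.35e-11, 3 of 3 libraries lower) and pre-cDC-like (-0.47, adjusted p = 0.00743, 3 of 3 libraries lower) barcodes. The call of *Zfp36* in pre-cDC-like barcodes was lost without TMM factors (-0.26, adjusted p = 0.0898; range over alternatives 3.81e-09 to 0.0898). The call of *Zfp36* in cDC2-like barcodes was gained with the library as a block (-0.26, adjusted p = 0.0195; range over alternatives 0.000925 to 0.178), and also without the filter on low counts and with thinned cells. *Btg1* stood at 1230.3, 1124 and 1042 CPM in the cDC1s, against 582, 582 and 533 in cDC2-like, 851, 839.6 and 795 in monocyte- or macrophage-like, 878, 921 and 848 in NK cell-like and 495, 438 and 416 in pre-cDC-like barcodes. *Btg1* lay below the cDC1s without overlap in cDC2-like (-1.02, adjusted p = 1.87e-10, 3 of 3 libraries lower), monocyte- or macrophage-like (-0.53, adjusted p = 9.09e-07, 3 of 3 libraries lower), NK cell-like (-0.65, adjusted p = 4.73e-08, 3 of 3 libraries lower) and pre-cDC-like (-1.54, adjusted p = 1.16e-12, 3 of 3 libraries lower) barcodes. *Btg2* stood at 1555, 1482 and 1558 CPM in the cDC1s, against 1093, 1141 and 1113 in cDC2-like, 724, 819 and 720.3 in monocyte- or macrophage-like, 446, 446 and 478 in NK cell-like and 1009, 782 and 939.8 in pre-cDC-like barcodes. *Btg2* lay below the cDC1s without overlap in cDC2-like (-0.48, adjusted p = 0.000191, 3 of 3 libraries lower), monocyte- or macrophage-like (-1.11, adjusted p = 6.04e-09, 3 of 3 libraries lower), NK cell-like (-2.03, adjusted p = 8.56e-13, 3 of 3 libraries lower) and pre-cDC-like (-0.95, adjusted p = 7.01e-08, 3 of 3 libraries lower) barcodes. *Ier5* stood at 701, 680.2 and 709 CPM in the cDC1s, against 278, 285 and 301 in cDC2-like, 250.1, 308 and 281 in monocyte- or macrophage-like, 182, 202 and 222 in NK cell-like and 348, 363 and 336 in pre-cDC-like barcodes. *Ier5* lay below the cDC1s without overlap in cDC2-like (-1.29, adjusted p = 3.8e-10, 3 of 3 libraries lower), monocyte- or macrophage-like (-1.40, adjusted p = 9.66e-11, 3 of 3 libraries lower), NK cell-like (-2.07, adjusted p = 2.75e-13, 3 of 3 libraries lower) and pre-cDC-like (-1.20, adjusted p = 1.35e-09, 3 of 3 libraries lower) barcodes.

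The other members ran from -3.80 (*Dusp4*) to 1.51 (*Fosl2*) in cDC2-like barcodes and from -3.10 (*Dusp4*) to 2.03 (*Rhob*) in monocyte- or macrophage-like barcodes. They ran from -4.10 (*Egr3*) to 2.40 (*Dusp2*) in NK cell-like barcodes and from -3.62 (*Dusp4*) to 1.08 (*Fosl2*) in pre-cDC-like barcodes, all named after their values were seen. *Fosl2* and *Dusp2* were called higher than in the cDC1s of the table in each of the 4 classes, and *Dusp4* was called lower in each. *Rhob*, which encodes an endosomal GTPase, was called higher in monocyte- or macrophage-like and NK cell-like barcodes and lower in the other 2 classes. The call of *Rhob* in pre-cDC-like barcodes was lost without the WT or sGSN-/- library (-0.31, adjusted p = 0.0774, then -0.26, adjusted p = 0.108; range over alternatives 0.000952 to 0.159), and also without TMM factors and with thinned cells. The call of *Rhob* in cDC2-like barcodes was lost with a coarser grouping (-0.22, adjusted p = 0.0583; range over alternatives 3.41e-07 to 0.0583). Without 1 library or under other alternatives the calls of 9 further members changed: they were lost for *Zfp36l1* in cDC2-like, lost for *Maff* in monocyte- or macrophage-like, gained for *Zfp36l1* and *Dusp1* in monocyte- or macrophage-like, lost for *Maff* in NK cell-like, gained for *Dusp5* in NK cell-like, lost for *Ier3*, *Ier2*, *Gadd45b* and *Csrnp1* in pre-cDC-like and gained for *Jun* in pre-cDC-like barcodes.

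Between genotypes no test was possible with 1 library each, and the intervals cover counting error only. Over all cDC1s of the table, 9 members were higher and 26 lower in the sGSN-/- than in the WT library, with a median log2 ratio of -0.09 beside -0.003 over the 6438 genes with a mean of at least 10 CPM, 49.2% of which were higher. In the sGSN-/-Clec9a-/- library 22 members were higher and 13 lower than in the sGSN-/- library, with a median of 0.06 beside -0.07, and 29.7% of those genes were higher. These counts of members do not adjust for the make-up of the libraries by cluster. Clusters 2, 3 and 6 held 875 of 2316 WT, 493 of 1712 sGSN-/- and 630 of 1778 sGSN-/-Clec9a-/- cDC1s. In the same order, the members summed to 20366, 18806 and 19612 CPM, beside 20197, 19855 and 19845 with the 12 clusters weighted equally. The part of cluster make-up in the counts of higher and lower members was not tested. Over all cDC1s of the table without such weights, *Fos* stood at 2971, 2571 and 2762 CPM (95% intervals 2953 to 2990.0, 2550.4 to 2591 and 2739.7 to 2784). *Jun* had 748, 626 and 599 CPM, with WT above the other libraries (739 to 757, 616 to 636 and 589 to 609.8). *Dusp1* had 740.1, 556 and 718 CPM (731 to 749, 547 to 566 and 707 to 729.5), lowest in the sGSN-/- library.

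*Junb* had 1990.0, 2053 and 2019 CPM and *Egr1* 711, 644 and 732 CPM, while *Btg1* had 1230.3, 1124 and 1042 CPM and *Atf3* 1396, 1313 and 1254 CPM. Among the members given here the order of the libraries changed for *Fos*, *Dusp1*, *Egr1*, *Atf3* and *Dusp4* with the 12 clusters weighted equally, and for *Fos*, *Dusp1*, *Junb* and *Btg1* over all barcodes that pass the filters. *Dusp4* was lowest in the sGSN-/-Clec9a-/- library (16.4, 18.1 and 12.8 CPM) and had the largest ratio between its highest and lowest library of the 35 members (1.41).

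Features of gene structure, which the list did not use, were set beside those of all tested genes. Their genes span a median of 5324 bases, from 1240 (*Ier3*) to 117720 (*Sgk1*), beside 23874 bases over 9302 tested genes found in the annotation. The median number of exons is 3 beside 9, and 82.9% of members have 4 exons or fewer, beside 19.5%. The pentamer ATTTA, the core of AU-rich elements, occurs at least 3 times after the stop codon in 62.9% of the members, beside 38.8%. The untranslated stretch after the stop codon has a median of 1109 bases, beside 1147.5. No test was run on these features.

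RefSeq promoters on GRCm38.p6 were found for 30 of the 35 members, and the 250 bases before each start were searched on either strand. The list holds no promoter for *Egr1*, *Egr3*, *Ier2*, *Dusp4* and *Myc*. A gene was counted if any of its promoters matched, and *Sgk1*, *Egr2*, *Csrnp1*, *Maff* and *Per1* have more than 1. The background is all 27025 genes of the list with 32851 promoters, tested or not. Shares were not matched for the number of promoters per gene. The CRE letters TGACGTCA, which CREB binds, occur in 4 members, *Btg2*, *Dusp1*, *Maff* and *Ppp1r15a* (13.3%), beside 1.77% of 27025 genes. CArG boxes, which SRF binds, occur in *Dusp5*, *Egr2* and *Zfp36* (10%), beside 1.62%. κB sites were found in *Egr2*, *Fos*, *Fosb*, *Fosl2*, *Ier3* and *Maff* (20%), beside 8.23%. The AP-1 letters TGAGTCA occur in *Csrnp1* (3.33%, beside 5.16%), and the EGR letters GCGTGGGCG in *Maff* (3.33%, beside 0.622%). A match describes letters in the window and not a bound site. The windows below hold, in capitals, the CRE of *Ppp1r15a*, *Btg2* and *Dusp1*. Of their calls in cluster 9 against clusters 2, 3 and 6, that of *Btg2* was lost without each of the 3 libraries and that of *Dusp1* without the WT library and without the sGSN-/-Clec9a-/- library. The last lines hold the CArG boxes of *Zfp36* and *Dusp5*.
*Ppp1r15a* (chr7:45526269-45526290, minus strand): gcctctccggTGACGTCAgcac
*Btg2* (chr1:134079304-134079331, minus strand): ttcccaataaTGACGTCAgtgagcgatg
*Dusp1* (chr17:26508598-26508625, minus strand): gtagggcgggTGACGTCAccgcccggtc
*Zfp36* (chr7:28379267-28379296, minus strand): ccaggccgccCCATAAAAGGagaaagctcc
*Dusp5* (chr19:53529053-53529092, plus strand): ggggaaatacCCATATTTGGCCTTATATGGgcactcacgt
In *Dusp5* the CArG boxes stand side by side. The promoter of *Maff* holds the CRE and the EGR letters in 1 window (*Maff*, chr15:79347422-79347508, plus strand), here in capitals.
*Maff*: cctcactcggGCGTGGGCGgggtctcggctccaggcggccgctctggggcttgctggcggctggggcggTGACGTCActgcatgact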

How the data were processed

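Raw UMI counts of 3 libraries, of pre-cDCs, cDC1s and cDC2s sorted from tumours of WT, sGSN-/- and sGSN-/-Clec9a-/- mice, were used as deposited; the authors had made these counts with Cell Ranger, without further filtering. The identifiers, barcodes and cluster numbers were other values that the authors deposited, the last from Seurat (4.0.0 in the sample labels, version 3 in the paper) in a table of cDC1s. The libraries held 176578136, 109270958 and 113411930 UMIs, of which 32676177, 23563047 and 21473550 lay in cDC1s of the table and 665492, 443114 and 421138 of these on the members; exact Poisson 95% intervals cover counting error only. Barcodes with fewer than 200 genes, or with more than 16.7% of UMIs on mitochondrial genes (2 SD over the mean), were set apart.

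Barcodes were clustered without the 35 members with scanpy 1.11.5 (2000 variable genes, 50 components, 20 neighbours, leidenalg 0.10.2 at resolution 1) and named from marker lists. UMIs were summed per library and group, since cells are not replicates, and compared with edgeR 4.0.16 in R 4.3.3 (quasi-likelihood F-test, TMM factors, filter on low counts, Benjamini-Hochberg over all genes tested, threshold 0.05); the fits were tested on simulated data. Alternatives were DESeq2 1.42.0, other scalings, no filter, the library as a block, leaving out each library, thinned cells, cells with high doublet scores left out, clusters 2 and 3 only, groups called without the members and a coarser clustering. Groups of 1 library come from the same pool of mice; deviations of groups of 1 library correlated at 0.0524 to 0.271 in the cluster fit, against -0.169 to -0.00177 between libraries, and at 0.0402 to 0.214 against -0.161 to 0.04 in the fit of classes.

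The members and the other lists were chosen with earlier results of these data known. Values per library are given for the 12 members with the highest mean CPM over the cDC1s of the table and for the 3 with the largest and the 3 with the smallest log2 fold change in each cluster comparison, and the others by range and number. Of the lists of signalling, NF-κB target and heat shock genes, counts in each direction and the 3 genes with the largest absolute log2 fold change past the threshold in clusters 2, 3 and 6 against cluster 0 and in cluster 9 against cluster 0 are given.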

Additional observations from a re-analysis of the deposited data

Results flagged for a closer look

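In 13 cases a member moved up in the library of 1 genotype and down in that of another under the same comparison, with counting intervals of the log2 ratios on either side of 0. For clusters 2, 3 and 6 against cluster 0 the gap was 0.47 for *Egr3* (0.16 in sGSN-/-, -0.31 in sGSN-/-Clec9a-/-). For cluster 9 against clusters 2, 3 and 6 the gap was 0.83 for *Klf4* (0.18 in WT, -0.64 in sGSN-/-Clec9a-/-) and 0.40 for *Klf6* (0.25 in WT, -0.15 in sGSN-/-). For cluster 9 against cluster 0 the gap was 0.55 for *Atf3* (0.38 in sGSN-/-, -0.17 in sGSN-/-Clec9a-/-). For cDC2-like barcodes against the cDC1s of the table the gap was 0.34 for *Fosb* (0.30 in sGSN-/-, -0.04 in WT), 0.27 for *Jun* (0.11 in sGSN-/-, -0.16 in WT) and 0.46 for *Csrnp1* (0.23 in sGSN-/-, -0.23 in sGSN-/-Clec9a-/-). For monocyte- or macrophage-like barcodes against the cDC1s of the table the gap was 0.33 for *Fosb* (0.12 in sGSN-/-, -0.21 in WT), 0.49 for *Jun* (0.26 in sGSN-/-, -0.22 in WT), 0.69 for *Egr2* (0.53 in sGSN-/-, -0.16 in WT) and 0.63 for *Dusp1* (0.08 in sGSN-/-, -0.55 in WT). For pre-cDC-like barcodes against the cDC1s of the table the gap was 0.33 for *Klf4* (0.21 in sGSN-/-, -0.13 in sGSN-/-Clec9a-/-) and 0.34 for *Gadd45b* (0.12 in WT, -0.22 in sGSN-/-). These ratios are of CPM without TMM factors. The intervals cover counting error only, each genotype has 1 library, and the differences were not tested. The same count was not made over all genes, so the 13 cases cannot be read as a trait of the members.

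Barcodes that fail the filters enter no comparison of the report, except 3 of the WT library that the table of the authors holds. The members summed to 11809, 10162 and 11311 CPM in those of the WT, sGSN-/- and sGSN-/-Clec9a-/- libraries, from 8745, 4964 and 3325 UMIs. Their level lay below that of the cDC1s of the table in each library, a difference that was not tested. By the mean of the libraries, *Fosb*, *Junb* and *Nr4a2* held the largest part of the sum.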

How the results depend on the processing

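Of 3464 log2 fold changes of members and named list genes under the alternatives, 3341 kept their direction where called and their side of the threshold, 70 lost a call, 53 gained a call and 0 of the called ones changed sign. Leaving out each library gave 19 to 20 higher and 5 to 6 lower members in clusters 2, 3 and 6 against cluster 0 (median 0.58 to 0.61), 14 to 16 and 0 to 2 in cluster 9 against clusters 2, 3 and 6 (median 0.23 to 0.33) and 21 to 22 and 1 to 5 in cluster 9 against cluster 0 (median 0.53 to 0.87). Against the cDC1s of the table it gave 7 and 19 to 20 in cDC2-like barcodes, 8 to 9 and 20 to 23 in monocyte- or macrophage-like barcodes, 4 and 30 in NK cell-like barcodes and 3 to 4 and 26 to 27 in pre-cDC-like barcodes. Each of these fits has 2 libraries per group. Over all genes they gave 469 to 825 higher and 643 to 1107 lower calls in place of 1190 and 1335 in the first comparison, 244 to 269 and 58 to 69 in place of 382 and 113 in the second and 392 to 500 and 385 to 546 in place of 660 and 718 in the third. In cDC2-like barcodes all genes had 3012 to 3547 higher and 3060 to 3441 lower calls, in place of 3774 and 3820. Monocyte- or macrophage-like barcodes had 3309 to 3815 and 3438 to 3712, in place of 4121 and 4017. NK cell-like barcodes had 4224 to 4488 and 4114 to 4546, in place of 4679 and 4698. Pre-cDC-like barcodes had 2670 to 3072 and 2829 to 3185, in place of 3302 and 3709.

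Without TMM factors the members' median was 0.79 in clusters 2, 3 and 6 against cluster 0, -1.32 in NK cell-like and -0.65 in pre-cDC-like barcodes, in place of 0.64, -1.61 and -0.86; this follows from the scaling, which moves all genes. With clusters 2 and 3 only, 10 members were lower against cluster 0 in place of 6, while lower calls over all genes went from 1335 to 768. In cluster 9 against clusters 2, 3 and 6, 2 were lower without TMM factors, 2 with totals without the members, 2 without the filter, 2 with the library as a block, 2 with high doublet scores left out, 2 with groups called without the members and 0 with DESeq2, in place of 1 with edgeR (2 at an unadjusted p under 0.05); all genes had 97 to 227 lower in these fits. In cluster 9 against cluster 0, 5 were lower without the filter and 5 with the library as a block, in place of 3, beside 1048, 878 and 718 of all genes. The block changed no other count of members by over 1.5 times. The cause of these changes was not tested.

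The summed level of the WT, sGSN-/- and sGSN-/-Clec9a-/- libraries was 20197, 19855 and 19845 CPM with the 12 clusters weighted equally, 20639, 19052 and 19757 with cells thinned and 15741, 15488 and 15895 over all barcodes that pass the filters, in place of 20366, 18806 and 19612; these weigh cells otherwise or take in other barcodes.

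Every statement on genotypes rests on 1 library of pooled mice each, so differences between mice cannot be read. The clusters were called on genes that include the members. In cluster 9 *Dusp4* and *Myc* had 22 and 29 UMIs. Classes outside the table are named from marker genes, and levels are transcripts, not proteins. The cells were sorted from digested tissue, and no undigested or freshly fixed sample is among the libraries.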

Other observations

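Other classes outside the table enter no test. In the order WT, sGSN-/- and sGSN-/-Clec9a-/-, the members summed to 16421, 17076 and 17314 CPM in barcodes with proliferation markers, 13429, 15115 and 16734 in those with markers of activated cDCs, 11328, 10878 and 11660.5 in plasmacytoid-like and 11195, 11940 and 10040 in T cell-like barcodes. *Fos* held the largest share of the sum in the first class, *Junb* in the second and last and, by the mean of the libraries, *Btg1* in the plasmacytoid-like barcodes.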
